A study of Mus musculus with 96 samples.

Results

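The mouse Cyp2c subfamily is a family of liver cytochrome P450 genes, of which 10 members are described here by gene symbol: Cyp2c29, Cyp2c37, Cyp2c38, Cyp2c39, Cyp2c40, Cyp2c44, Cyp2c50, Cyp2c54, Cyp2c67 and Cyp2c70. They are 10 of the 38924 genes in the deposited tables. Cyp2c44 appears in the GENCODE M21 annotation as Cyp2c23 (ENSMUSG00000025197), and RefSeq gives the older name as a synonym. Each gene's 2 values per mouse, 1 for the allele from the NOD/ShiLtJ strain and 1 for the allele from the PWK/PhJ strain, were added for its total, and the PWK value divided by the total gave its PWK share. All 10 passed the filter on low counts and were among the 11979 genes tested.

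Cytochrome P450 enzymes of this subfamily sit in the membrane of the endoplasmic reticulum, take electrons from the P450 reductase Por and from cytochrome b5, and carry haem as their catalytic centre. They oxidise drugs, steroids, retinoids and polyunsaturated fatty acids. From arachidonic acid several of them make epoxyeicosatrienoic acids, which the epoxide hydrolases Ephx1 and Ephx2 open to diols. In liver many are expressed mainly around the central vein and respond to the nuclear receptors CAR (Nr1i3) and PXR (Nr1i2), to HNF4A and to the sex-specific pattern of growth hormone.

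Livers came from 48 male F1 mice of the 2 reciprocal crosses of NOD/ShiLtJ and PWK/PhJ, so every mouse, whatever its group, carries 1 NOD and 1 PWK allele of each autosomal gene. The crosses are written NODxPWK and PWKxNOD, with the first strain taken as the dam. Within each cross, mice were fed a diet with 0.009 g/kg (normal) or 0.050 g/kg (high) cholecalciferol, which is vitamin D3, and each cross and diet had 6 younger and 6 older mice. The 8 groups were therefore NODxPWK or PWKxNOD, on the normal or the high diet, younger or older, with 6 mice each. The younger mice are labelled 8 in age and the older mice 24 or 25, with no unit, and the protocol's weeks do not match the label of the younger mice, so they are called younger and older here. The label 25 belongs to 7 of the 12 older mice on the normal diet, 5 of them NODxPWK and 2 PWKxNOD. Among those 12 mice the label therefore overlaps with cross. Leaving out the mice labelled 25 leaves 1 mouse in the older NODxPWK group on the normal diet. Every fit without them rests on that 1 mouse for its group. All 12 older mice on the high diet are labelled 24, so for those 7 mice a diet difference among older mice and a difference in this label cannot be told apart.

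Mice of different groups with the same number were sequenced on the same set of lanes, 6 sets in all. Each library held 2025857 to 7480778 counts, with a median of 5273518, and the 10 genes together held 0.356% to 0.783% of them. Among genes on the X chromosome, of which these males have only the maternal copy, 3.93% to 6.19% of counts were given to the paternal allele. That is the share of wrong allele assignment measured in these libraries. The hepatocyte markers summed to 63748 to 118900 CPM in older mice and 73817 to 122930 CPM in younger mice, where CPM is the count per 1000000 counts of a library after TMM scaling. Markers of the exocrine pancreas summed to above 60 CPM in 10 mice, 7 of them older. Differences were tested with edgeR's quasi-likelihood test, with Benjamini-Hochberg adjustment over all genes tested, and a gene was called at an adjusted p under 0.05. Each p-value sets a difference between groups against the spread between these mice. In whole liver fewer cells of a type and less RNA per cell cannot be told apart.

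Of the 10 genes, 9 lie in 1 cluster on chromosome 19 that spans 1180 kb (GRCm38) from Cyp2c55 to Cyp2c70, while Cyp2c44 (chr19:44005022-44029208, minus strand) lies 3.82 Mb beyond it. Many of these genes are near copies, so reads of 68 bases can match several of them, and the authors' method splits such reads in proportion to an estimate. Of all 68-base windows of its transcripts, 49.4% for Cyp2c40, 40.4% for Cyp2c67, 17.4% for Cyp2c37, 16.9% for Cyp2c54 and 12.3% for Cyp2c50 also occurred in another gene. Cyp2c39 (4.63%), Cyp2c29 (2.91%) and Cyp2c38 (2.86%) shared few windows, and Cyp2c70 and Cyp2c44 shared none. Totals that were whole numbers in all 48 mice, within a tolerance of 0.001, were found among the members for Cyp2c70 and Cyp2c44 alone. The totals of Cyp2c29, Cyp2c39 and Cyp2c38 were whole in 0, 3 and 8 of the 48 mice, so some of their reads were split too. The values of all members but Cyp2c70 and Cyp2c44 are uncertain to the extent that their reads were split. By shared windows this extent is largest for Cyp2c40, Cyp2c67, Cyp2c37, Cyp2c54 and Cyp2c50.

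A set of 3 near copies among the members is Cyp2c37 (chr19:39992424-40012243, plus strand), Cyp2c50 (chr19:40089688-40113950, plus strand) and Cyp2c54 (chr19:40037940-40073827, minus strand), whose coding sequences were 95.10% to 96.12% identical in pairs. A read from the following window in exon 2 of each gene, GRCm38 sequence of the coding strand, is the same in all 3 (chr19:39993743-39993810 in Cyp2c37, chr19:40090239-40090306 in Cyp2c50 and chr19:40072444-40072511 in Cyp2c54).
Cyp2c37, Cyp2c50 and Cyp2c54, exon 2: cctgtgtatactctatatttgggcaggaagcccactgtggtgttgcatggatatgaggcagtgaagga
Their most different window of that length is in exon 6 (chr19:40000421-40000488, chr19:40096720-40096787 and chr19:40047575-40047642 in the order of the lines). Capitals mark its 14 positions that differ between the 3 genes, where a read tells the genes apart.
Cyp2c37, exon 6: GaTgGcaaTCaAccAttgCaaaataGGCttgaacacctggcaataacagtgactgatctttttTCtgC
Cyp2c50, exon 6: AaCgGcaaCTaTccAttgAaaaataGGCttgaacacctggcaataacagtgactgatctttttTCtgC
Cyp2c54, exon 6: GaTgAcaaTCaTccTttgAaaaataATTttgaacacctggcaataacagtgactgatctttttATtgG

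Cyp2c40 (chr19:39767071-39812814, minus strand) and Cyp2c67 (chr19:39608842-39649051, minus strand) form another set with Cyp2c68 and Cyp2c69, which are not members but take part in the split. Of the windows of Cyp2c40, 29.8% occurred in Cyp2c69, 20.7% in Cyp2c67 and 18.8% in Cyp2c68. The most different window of these 4 genes, in exon 2, had 9 variable positions, marked by capitals (chr19:39807523-39807590 in Cyp2c40, chr19:39643600-39643667 in Cyp2c67, chr19:39739384-39739451 in Cyp2c68 and chr19:39881454-39881521 in Cyp2c69, minus strand).
Cyp2c40, exon 2: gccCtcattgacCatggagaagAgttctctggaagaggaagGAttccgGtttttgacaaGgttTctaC
Cyp2c67, exon 2: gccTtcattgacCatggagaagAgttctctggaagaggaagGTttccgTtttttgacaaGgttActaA
Cyp2c68, exon 2: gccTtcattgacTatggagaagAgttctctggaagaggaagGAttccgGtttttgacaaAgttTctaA
Cyp2c69, exon 2: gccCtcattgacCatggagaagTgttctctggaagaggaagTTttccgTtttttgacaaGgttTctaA

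Cyp2c38 (chr19:39389556-39463075, minus strand) and Cyp2c39 (chr19:39510862-39568529, plus strand) were 94.22% identical over the coding sequence but shared few windows. The window that separates them best, in exon 3 (chr19:39460345-39460412 in Cyp2c38 and chr19:39513500-39513567 in Cyp2c39), had 11 variable positions, again in capitals.
Cyp2c38, exon 3: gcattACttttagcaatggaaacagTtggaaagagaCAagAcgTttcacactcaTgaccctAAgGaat
Cyp2c39, exon 3: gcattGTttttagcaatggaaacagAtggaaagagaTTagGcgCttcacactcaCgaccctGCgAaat
These letters are of the reference mouse genome, and the NOD and PWK genomes were not used here.

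Levels between genes were compared per kilobase of the longest coding transcript. Cyp2c29 (chr19:39269405-39330713, plus strand), an abundant and CAR-inducible member that epoxidises arachidonic acid, was the most abundant, at 1414 ± 273 CPM per kb (SD, n = 48), and supplied 46.2% of the members' summed CPM. Cyp2c70 (chr19:40153353-40187333, minus strand), which makes the muricholic acids of mouse bile from chenodeoxycholic acid, followed at 575 ± 135 CPM per kb. Cyp2c50 was at 326 ± 102.5, Cyp2c54 at 255 ± 104, Cyp2c67 at 170 ± 29.1, Cyp2c37 at 140 ± 60.5 and Cyp2c44 at 133 ± 20.3 CPM per kb. Low levels were found for Cyp2c40 (33.6 ± 10.4), Cyp2c39 (14.1 ± 10.5) and Cyp2c38 (2.40 ± 1.702 CPM per kb). The order held in nearly every mouse at most steps, for example Cyp2c29 above Cyp2c70 in 48 of 48 mice and Cyp2c70 above Cyp2c50 in 43. At 3 neighbouring steps the levels lay within the spread, since Cyp2c54 exceeded Cyp2c67 in 31 mice, Cyp2c67 exceeded Cyp2c37 in 31 and Cyp2c37 exceeded Cyp2c44 in 24.

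**Figure D1:**
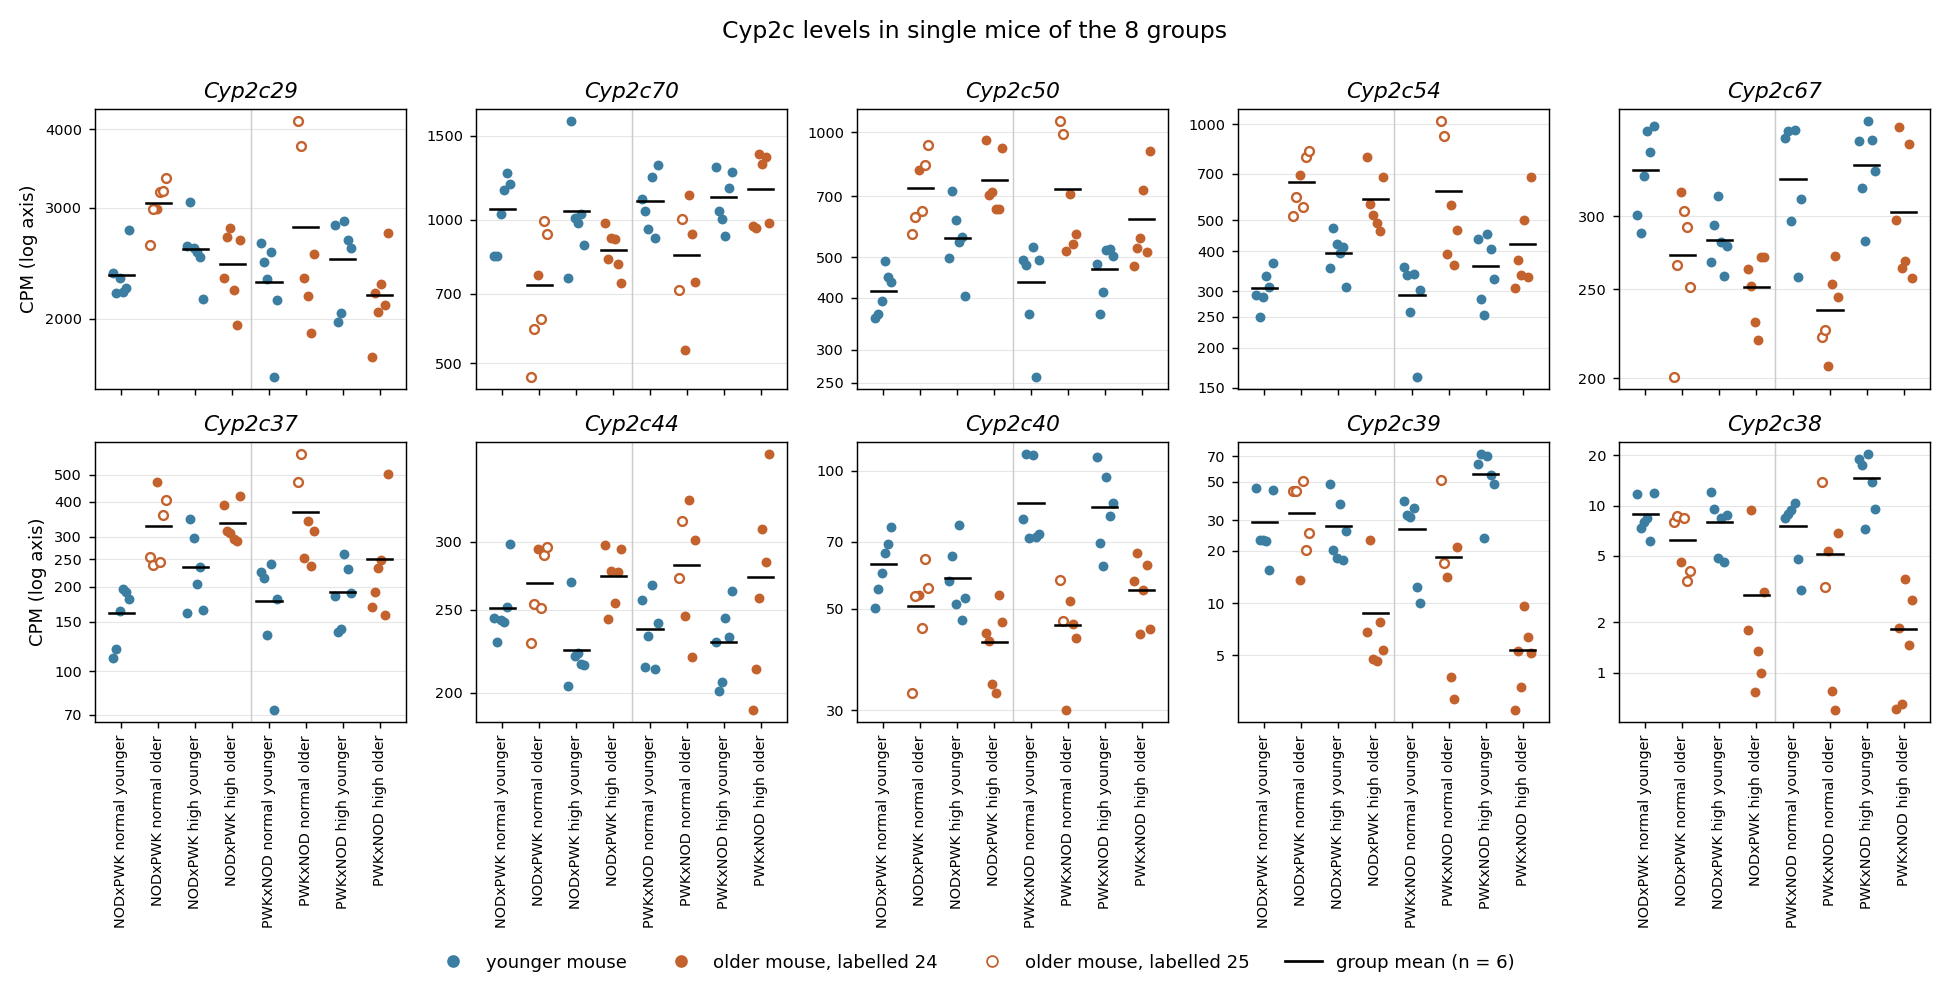
Total level (CPM, log axis) of each of the 10 genes in every mouse of the 8 groups, with younger mice in blue, older mice in orange, the 7 mice labelled 25 as open orange circles and a black bar at each group's mean (n = 6). Cyp2c37, Cyp2c50 and Cyp2c54 sit higher and Cyp2c38, Cyp2c39, Cyp2c40 and Cyp2c67 lower in older mice, with groups that overlap.

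The comparison of the 24 older with the 24 younger mice, averaged over cross and diet, called 9 of the 10 genes, against 12% of all genes tested, with 4 higher (6.42% of all genes) and 5 lower (5.58%) in older mice. The 4 that rose were Cyp2c37, Cyp2c44, Cyp2c50 and Cyp2c54, and the 5 that fell were Cyp2c38, Cyp2c39, Cyp2c40, Cyp2c67 and Cyp2c70. The median log2 difference of the 10 was -0.09, beside -0.0035 over all genes tested. The summed level of the 10 genes differed by 0.14 ± 0.06 on the log2 scale (SE, adjusted p = 0.143), and by 0.28 ± 0.09 on the normal diet (adjusted p = 0.0503) and 0.01 ± 0.09 on the high diet (adjusted p = 0.978). For every member the older and younger mice overlapped, as they did for all but 0.0334% of the genes tested.

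Cyp2c37, Cyp2c50 and Cyp2c54, which turn arachidonic acid into epoxides and hydroxy acids, rose together. Cyp2c54 ranged from 309 through a median of 534 to 1020 CPM in older mice and from 163 through 337 to 474 CPM in younger mice. The older mice were the higher ones, 22 of 24 above the younger median and 16 above every younger mouse, a log2 difference of 0.75 ± 0.11 (SE, adjusted p = 2.07e-06, edgeR). Cyp2c50 ranged from 476 through 681 to 1061 CPM in older and from 258 through 486 to 720 CPM in younger mice, a difference of 0.61 ± 0.09 (adjusted p = 1.36e-06), with 23 of 24 older mice above the younger median. Cyp2c37 ranged from 159 through 302 to 590 CPM in older and from 73.1 through 187 to 346 CPM in younger mice, a difference of 0.75 ± 0.13 (adjusted p = 8.33e-05), with 22 of 24 above. Because these genes share reads, their counts were also added and tested as 1 row, which rose by 0.68 ± 0.10 (adjusted p = 2.34e-06). Without the 7 mice labelled 25 the row rose by 0.64 ± 0.11 (adjusted p = 0.000142).

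The 3 genes were higher in older mice on both diets, and more so in the values on the normal diet. On the normal diet Cyp2c54 had a median of 574 CPM in older against 306 CPM in younger mice, and on the high diet 497 against 401 CPM. Every one of the 12 older mice on the normal diet was above the median of the younger for each of the 3 genes. The log2 age difference of Cyp2c54 was 1.09 ± 0.15 on the normal diet (adjusted p = 3.4e-06) and 0.40 ± 0.15 on the high diet (adjusted p = 0.111), and the difference between these, -0.69 ± 0.21, missed the threshold (adjusted p = 0.126). Cyp2c37 gave 1.04 ± 0.19 on the normal and 0.46 ± 0.19 on the high diet (adjusted p = 0.000294 and 0.153), with an interaction of -0.58 ± 0.27 (adjusted p = 0.381). Cyp2c50 was called on both, at 0.79 ± 0.12 and 0.43 ± 0.12 (adjusted p = 2.3e-05 and 0.0212).

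Cyp2c40, which makes hydroxyeicosatetraenoic acids and is known to be higher in female than in male liver, fell with age on both diets. It ranged from 30.1 through 46.9 to 66.0 CPM in older and from 47.4 through 70.5 to 109 CPM in younger mice. All 24 older mice were below the younger median and 13 were below every younger mouse, a log2 difference of -0.57 ± 0.08 (adjusted p = 4.26e-07). The values by diet were nearly the same, -0.60 ± 0.11 on the normal and -0.53 ± 0.11 on the high diet (adjusted p = 0.000228 and 0.000802), of which the former missed the threshold without the mice labelled 25 (-0.61, adjusted p = 0.0736, the highest of its alternatives, with 1.04e-05 the lowest). Cyp2c67 ranged from 201 through 263 to 375 CPM in older and from 257 through 319 to 380 CPM in younger mice, a difference of -0.28 ± 0.05 (adjusted p = 9.33e-05), with 22 of 24 older mice below the younger median.

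Cyp2c68 and Cyp2c69, described because they share reads with Cyp2c40 and Cyp2c67, fell as well. Cyp2c68 differed by -0.53 ± 0.06 (adjusted p = 1.74e-08) and Cyp2c69, at a median of 0.714 CPM in older against 1.55 CPM in younger mice, by -1.55 ± 0.33 (adjusted p = 0.000757). The counts of all 4 genes added as 1 row fell by 0.44 on the log2 scale (SE 0.06, adjusted p = 1.1e-07), and without the 7 mice labelled 25 the difference was -0.42 ± 0.08 (adjusted p = 0.000219).

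Cyp2c39, a retinoic acid hydroxylase, and its close relative Cyp2c38 had the largest age differences of the 10 genes, in log2 size. Cyp2c39 ranged from 2.44 through 8.69 to 51.2 CPM in older and from 10.007 through 31.7 to 71.8 CPM in younger mice, and Cyp2c38 from 0.602 through 3.16 to 13.8 CPM and from 3.11 through 8.86 to 20.3 CPM. The older mice were the lower ones, but spread widely: 13 of 24 were below every younger mouse for Cyp2c39 and 12 for Cyp2c38. The log2 differences were -1.40 ± 0.24 for Cyp2c39 (adjusted p = 3.8e-05) and -1.42 ± 0.24 for Cyp2c38 (adjusted p = 3.61e-05).

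The spread of Cyp2c39 among older mice went with diet and with the age label, which overlaps with cross. On the high diet older mice ranged from 2.44 through 5.36 to 22.9 CPM and younger mice from 17.7 through 42.8 to 71.8 CPM. On the normal diet older mice ranged from 2.81 through 20.6 to 51.2 CPM and younger mice from 10.007 through 27.2 to 46.2 CPM. On the high diet 11 of 12 older mice were below every younger mouse, and on the normal diet 2 of 12. The age difference was -2.56 ± 0.35 on the high diet (adjusted p = 2.86e-06) and -0.24 ± 0.32 on the normal diet (adjusted p = 0.742). The interaction of age and diet, -2.31 ± 0.48 (adjusted p = 0.0164), was the only interaction called for a member, against 0.618% of all genes for age by diet. Of the 10 age by diet interactions, 8 had an unadjusted p under 0.05, beside 1434 of all 11979 genes tested. Members that share reads do not count separately here.

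Among the older mice on the normal diet, the 7 labelled 25 had Cyp2c39 at 17.1 through 43.9 to 51.2 CPM, and the 5 labelled 24 at 2.81 through 13.5 to 20.9 CPM, nearer to the older mice on the high diet. Of the 7, 5 were NODxPWK and 2 PWKxNOD, so label and cross overlap in part in this contrast. Both crosses held mice of both labels, and label was not tested within a cross. Over all older mice Cyp2c39 differed between crosses by -0.89 ± 0.37 (adjusted p = 0.154, edgeR). Without the 7 mice the interaction was -1.36 and the age difference on the normal diet -1.19, with 1 mouse left in the older NODxPWK group on that diet. Over the 16 alternatives tried, the interaction of Cyp2c39 ranged from -2.54 to -1.36 with adjusted p from 0.00122 to 0.565, and 11 passed. Its age difference averaged over both diets was -1.87 without those mice (adjusted p = 0.000245), and over all alternatives adjusted p ranged from 6.82e-07 to 0.00203. Cyp2c38 showed a like gap between diets, at -2.21 ± 0.35 on the high diet (adjusted p = 2.85e-05) and -0.62 ± 0.32 on the normal diet (adjusted p = 0.289), but its interaction of -1.59 ± 0.48 missed the threshold (adjusted p = 0.117).

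Cyp2c29 was the 1 member with no age call in the overall comparison, at 1737 through 2576 to 4118 CPM in older and 1617 through 2484 to 3062 CPM in younger mice, a log2 difference of 0.10 ± 0.07 (adjusted p = 0.398). On the normal diet older mice had 1898 through 2988 to 4118 CPM and younger mice 1617 through 2317 to 2767 CPM. On the high diet they had 1737 through 2243 to 2785 CPM and 1978 through 2587 to 3062 CPM. The age difference was 0.33 ± 0.10 on the normal diet (adjusted p = 0.0249) and -0.13 ± 0.10 on the high diet (adjusted p = 0.49). The interaction, -0.47 ± 0.13, missed the threshold in edgeR (adjusted p = 0.0825) and passed it in DESeq2 (adjusted p = 0.0464). The 7 mice labelled 25 again stood higher, at 2622 through 3187 to 4118 CPM against 1898 through 2319 to 2986 CPM in the 5 labelled 24. Label and cross overlap in this contrast as well. Without those 7 mice the age difference of Cyp2c29 on the normal diet was 0.15, and 8 of 16 alternatives kept the call.

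Cyp2c70 fell with age, from 756 through 1036 to 1610 CPM in younger to 469 through 924 to 1378 CPM in older mice, a difference of -0.28 ± 0.08 (adjusted p = 0.0161). This was the least stable of the 9 age calls: 11 of 16 alternatives kept it, with values from -0.32 to -0.22 and adjusted p from 0.00917 to 0.151. Without the 7 mice labelled 25 it was -0.27. By diet, Cyp2c70 differed with age by -0.45 ± 0.12 on the normal diet (adjusted p = 0.0106, edgeR), which holds those 7 mice. On the high diet it differed by -0.11 ± 0.12 (adjusted p = 0.706). The interaction, 0.35 ± 0.16, missed the threshold (adjusted p = 0.389). Cyp2c44, an epoxygenase of liver and kidney, rose slightly, from 201 through 233 to 298 CPM in younger to 191 through 277 to 379 CPM in older mice (0.22 ± 0.05, adjusted p = 0.00369), and 20 of 24 older mice were above the younger median. These 2 genes share no 68-base window with another gene.

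Within single diets, age was called for 7 of the 10 genes on the normal diet, against 6.28% of all genes, and for 5 on the high diet, against 6.96%. Only Cyp2c40 and Cyp2c50 were called on both. Without the 7 mice labelled 25, 3 of the 7 calls on the normal diet passed (Cyp2c37, Cyp2c50 and Cyp2c54), and 3 of the 5 on the high diet passed without lane set 3, 4 or 6. Within single crosses, age was called for 6 genes in NODxPWK (6.57% of all genes) and 8 in PWKxNOD (5.15%), of which 3 and 5 passed without the mice labelled 25. In NODxPWK 2 passed with a score of clock genes as a covariate and 3 without lane set 2 or 4. No age by cross interaction was called in edgeR or DESeq2, where 2 of the 10 had an unadjusted p under 0.05 in edgeR and 0.0501% of all genes were called. The largest was that of Cyp2c39, -1.29 ± 0.48 (adjusted p = 0.358), whose age difference was -0.76 ± 0.32 in NODxPWK and -2.05 ± 0.35 in PWKxNOD. NODxPWK also held 5 of the 7 mice labelled 25, so that label and cross overlap in this difference.

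**Figure D2:**
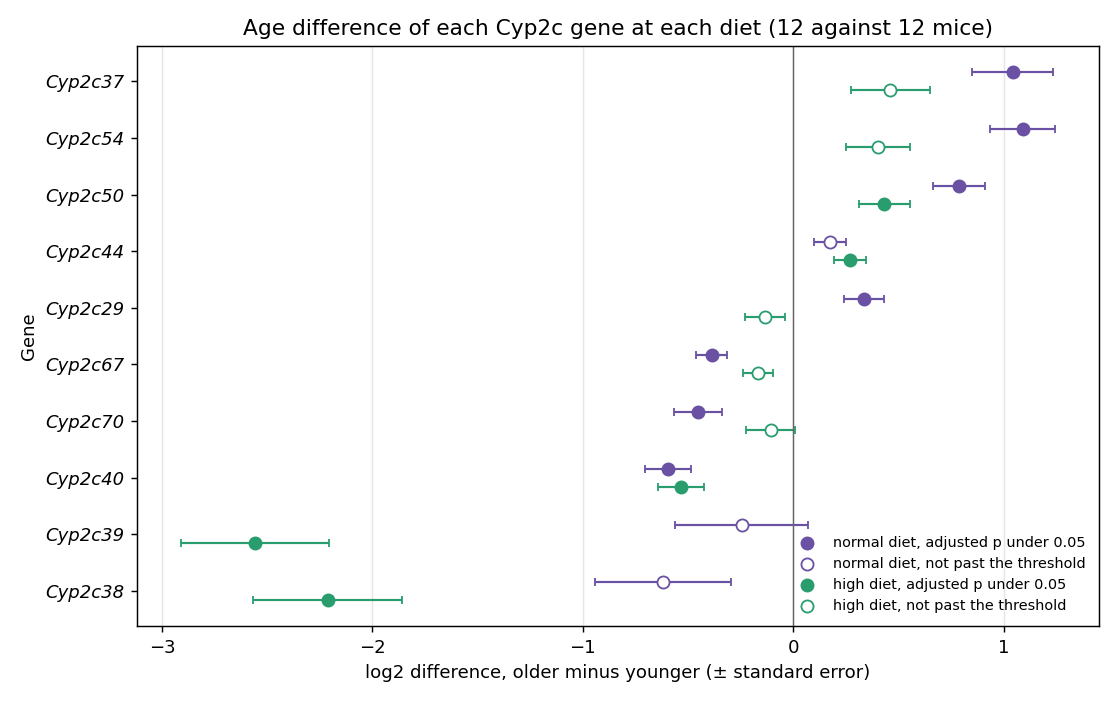
Difference between older and younger mice (log2, with SE) for each of the 10 genes on the normal diet (purple) and the high diet (green), 12 mice against 12 each, filled where the adjusted p is under 0.05. Cyp2c39 has the widest gap between diets, from -0.24 to -2.56, and Cyp2c40 almost none.

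High against normal vitamin D, averaged over age and cross, called none of the 10 genes in edgeR or DESeq2, where 2 had an unadjusted p under 0.05 in edgeR and 0.342% of all genes were called. Among older mice it called 2 genes, against 3.71% of all genes. Cyp2c39 was lower on the high diet by a log2 difference of -1.79 ± 0.36 (adjusted p = 0.00348), and Cyp2c29 by -0.34 ± 0.10 (adjusted p = 0.0295). Without the 7 mice labelled 25 these were -0.84 ± 0.55 (adjusted p = 0.708) and -0.15 (adjusted p = 0.771). Over the alternatives the adjusted p ranged from 2.63e-05 to 0.708 for Cyp2c39, of which 14 of 16 passed, and from 0.0163 to 0.771 for Cyp2c29, of which 7 passed. Cyp2c38 (-1.17 ± 0.38, adjusted p = 0.0732) and Cyp2c70 (0.35 ± 0.12, adjusted p = 0.076) missed the threshold in edgeR and passed it in DESeq2 (-1.25 and 0.36, adjusted p = 0.0202 and 0.0496). Among younger mice no member was called by edgeR or DESeq2, 2 had an unadjusted p under 0.05 in edgeR, and 0% of all genes was called.

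The direction of the cross called 1 member, against 10.7% of all genes. Cyp2c40 was higher in PWKxNOD by 0.29 ± 0.08 on the log2 scale (adjusted p = 0.00734). It was also called among the younger mice, at 62.0 through 79.1 to 109 CPM in PWKxNOD and 47.4 through 58.7 to 76.1 CPM in NODxPWK, with overlapping groups (0.48 ± 0.11, adjusted p = 0.00528, 3.47% of all genes called), and passed in 15 of 16 alternatives, the exception being the clock score as a covariate (0.47, adjusted p = 0.109, from 0.0013 in the others). Older mice stood at 30.1 through 49.5 to 66.0 CPM and 32.8 through 46.04 to 64.2 CPM (0.11, adjusted p = 0.663), and the age by cross interaction of Cyp2c40 missed the threshold (-0.37 ± 0.15, adjusted p = 0.429). Cyp2c68 was also higher in PWKxNOD (0.33 ± 0.06, adjusted p = 0.000192), as was the sum of Cyp2c40, Cyp2c67, Cyp2c68 and Cyp2c69 (0.23 ± 0.06, adjusted p = 0.0034). The overall call of Cyp2c40 held in 13 of 16 alternatives, with adjusted p from 0.0027 to 0.805. This call was lost without the mice labelled 25 (0.25), without lane set 1 (0.22) and with the clock score. With the clock score the difference was 0.28 ± 0.14, beside 0.29 ± 0.08 in the main fit. No member was called for cross among older mice by edgeR or DESeq2 (2 at an unadjusted p under 0.05 in edgeR, 7.08% of all genes called). For diet by cross edgeR called none (1 at an unadjusted p under 0.05, 0.125% of all genes called) and DESeq2 called Cyp2c67 (0.39, adjusted p = 0.0323).

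Each mouse carries both alleles, so the PWK share compares them within 1 liver. The 10 genes spanned nearly the whole range of this share. Cyp2c40 counts were almost all PWK, at 99.7% ± 0.57 (SD, n = 48), with 0 to 5.73 NOD counts per mouse. Cyp2c44 followed at 94.7% ± 1.45, Cyp2c37 at 78.4% ± 3.09 and Cyp2c70 at 66.6% ± 3.11. Cyp2c50 (59.9% ± 2.50), Cyp2c39 (59.4% ± 16.2), Cyp2c54 (56.8% ± 2.91) and Cyp2c29 (49.1% ± 3.38) were nearer to 50%. Cyp2c67 (5.82% ± 2.19) and Cyp2c38 (4.89% ± 9.68) were almost all NOD, and Cyp2c38 had a median of 0% PWK over 0 to 8.13 PWK and 3.00 to 96.5 NOD counts per mouse.

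All 10 genes were called for PWK against NOD, 7 with PWK higher and 3 with NOD higher, beside 43.6% of the 9362 genes tested (20.9% with PWK higher and 22.8% with NOD higher), so an allelic difference was common in these livers. Cyp2c44 differed by 4.20 ± 0.05 on the log2 scale (adjusted p = 3.85e-43), Cyp2c37 by 1.87 ± 0.04 and Cyp2c70 by 1.00 ± 0.02, while Cyp2c67 differed by -4.09 ± 0.09 (adjusted p = 3.84e-34) and Cyp2c38 by -4.63 ± 0.33. The weaker alleles of Cyp2c44, Cyp2c67 and Cyp2c38 stood near the 3.93% to 6.19% of counts given to the wrong allele on the X chromosome, so expression from them and wrong assignment cannot be told apart. Cyp2c29 was called at -0.05 ± 0.02 (adjusted p = 0.0171), a difference that 7 of 12 alternatives kept, with adjusted p from 0.00655 to 0.168.

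Read sharing touches the shares of Cyp2c40 and Cyp2c67 in particular. Cyp2c68 stood at 88.5% ± 1.62 PWK, and Cyp2c40, Cyp2c67, Cyp2c68 and Cyp2c69 added together at 56.6% PWK, between the extremes of its members. The sum of Cyp2c37, Cyp2c50 and Cyp2c54 stood at 62.4% PWK. A read can be given to the wrong gene and the wrong strain at once, and how far this sets the shares of these genes was not tested. Cyp2c44 and Cyp2c70, which share no window with another gene, had shares of 91.7% to 97.5% and 59.3% to 72.3% over the 48 mice.

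**Figure D3:**
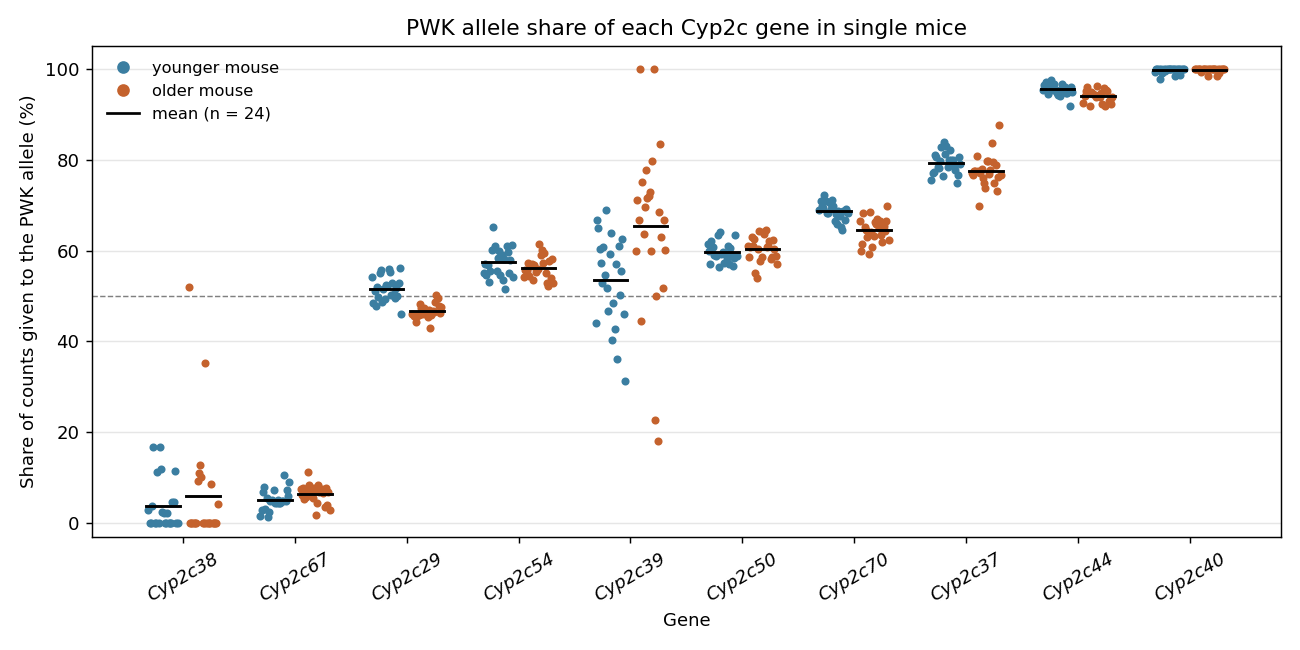
PWK share (percent of a gene's counts) in each mouse, younger in blue and older in orange, with bars at the means (n = 24 each) and a dashed line at 50%. Cyp2c40 and Cyp2c44 lie near 100%, Cyp2c67 and Cyp2c38 near 0%, and the shares of Cyp2c29 and Cyp2c70 are lower in older mice.

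The share moved with age for 3 of the 10 genes, against 0.705% of all genes tested. An unadjusted p under 0.05 was found for 5 of the 10, beside 589 of all 9362 genes tested. The PWK share of Cyp2c29 was 43% through 46.2% to 50.2% in older and 46.1% through 51.7% to 56.1% in younger mice. All 24 older mice were below the younger median and 11 were below every younger mouse, a log2 ratio difference of -0.29 ± 0.04 (adjusted p = 3.47e-07). The total of Cyp2c29 had shown no overall age call, and the 2 alleles taken alone differed by 0.24 ± 0.07 for NOD (adjusted p = 0.0402) and -0.04 ± 0.07 for PWK (adjusted p = 0.856). This share difference passed in all 12 alternatives, from -0.32 to -0.28, with adjusted p from 1.77e-07 to 0.000325.

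For Cyp2c70 the share was 59.3% through 64.7% to 69.7% in older and 64.6% through 68.7% to 72.3% in younger mice, with 23 of 24 older mice below the younger median (-0.27 ± 0.04, adjusted p = 2.5e-05). Its PWK allele alone fell by 0.37 on the log2 scale (SE 0.09, adjusted p = 0.00401), from a median of 716 to 597 CPM, and its NOD allele differed by -0.11 ± 0.08 (adjusted p = 0.609), with medians of 330 and 328 CPM. For Cyp2c44 the share was 91.8% through 94.2% to 96.3% in older and 91.7% through 95.4% to 97.5% in younger mice (-0.43 ± 0.10, adjusted p = 0.0234). In Cyp2c44 the NOD allele, at a median of 14.4 CPM in older against 10.3 CPM in younger mice, differed by 0.64 ± 0.12 (adjusted p = 0.000251), and the PWK allele by 0.20 ± 0.05 (adjusted p = 0.0187). X-linked counts given to the paternal allele had a median of 4.40% in older and 4.54% in younger mice. Without the 7 mice labelled 25 the difference for Cyp2c70 was -0.17 (adjusted p = 0.0964, where 11 of 12 alternatives passed from 1.25e-05 up) and that for Cyp2c44 -0.50 (adjusted p = 0.0779, where 5 of 12 passed, over a range of 0.0116 to 0.41).

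In the genes whose totals rose most, both alleles moved. The NOD and PWK alleles alone rose by 0.58 and 0.63 for Cyp2c50, 0.80 and 0.70 for Cyp2c54, and 0.89 and 0.72 for Cyp2c37 (adjusted p of 0.000179 or less, with 5.29% and 5.37% of all genes called for the NOD and PWK allele alone). In Cyp2c39 they fell by 1.76 and 1.17 (adjusted p = 2.12e-05 and 0.00176), and the age difference of its allele ratio, 0.71 ± 0.29, missed the threshold (adjusted p = 0.628). No member's ratio was called for maternal against paternal origin in edgeR, with 1 at an unadjusted p under 0.05 and 0.267% of all genes called, or for diet, with 1 at an unadjusted p under 0.05 and 0.0214% of all genes called. DESeq2 was not run on the allele ratios. Added as 1 row, Cyp2c40, Cyp2c67, Cyp2c68 and Cyp2c69 were called for maternal over paternal (0.12 ± 0.02, adjusted p = 0.000552), with a PWK share of 54.6% ± 2.65 in NODxPWK and 58.5% ± 3.32 in PWKxNOD. The mostly PWK genes of that sum, Cyp2c40 and Cyp2c68, also had higher totals in PWKxNOD, and their part in this call was not tested.

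Each gene's log2 CPM was centred on its group's mean, and the 10 genes were compared in pairs from mouse to mouse within groups. Pearson's r over the 48 mice was above 0 in 41 of the 45 pairs, with a median of 0.36, and pairs of genes at large were not summarised beside them. These are descriptions of values that share a library and its depth, and genes of a set also share reads. The highest were Cyp2c50 with Cyp2c54 (0.94), Cyp2c37 with Cyp2c50 (0.92), Cyp2c38 with Cyp2c39 (0.90) and Cyp2c37 with Cyp2c54 (0.87). Cyp2c29 with Cyp2c54, which are not near copies, reached 0.85, and Cyp2c40 with Cyp2c67 0.70. Cyp2c70 gave the lowest values of all pairs, against Cyp2c38 (-0.39) and Cyp2c39 (-0.35), but reached 0.50 with Cyp2c44, 0.49 with Cyp2c50 and 0.43 with Cyp2c37 and Cyp2c40.

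**Figure D4:**
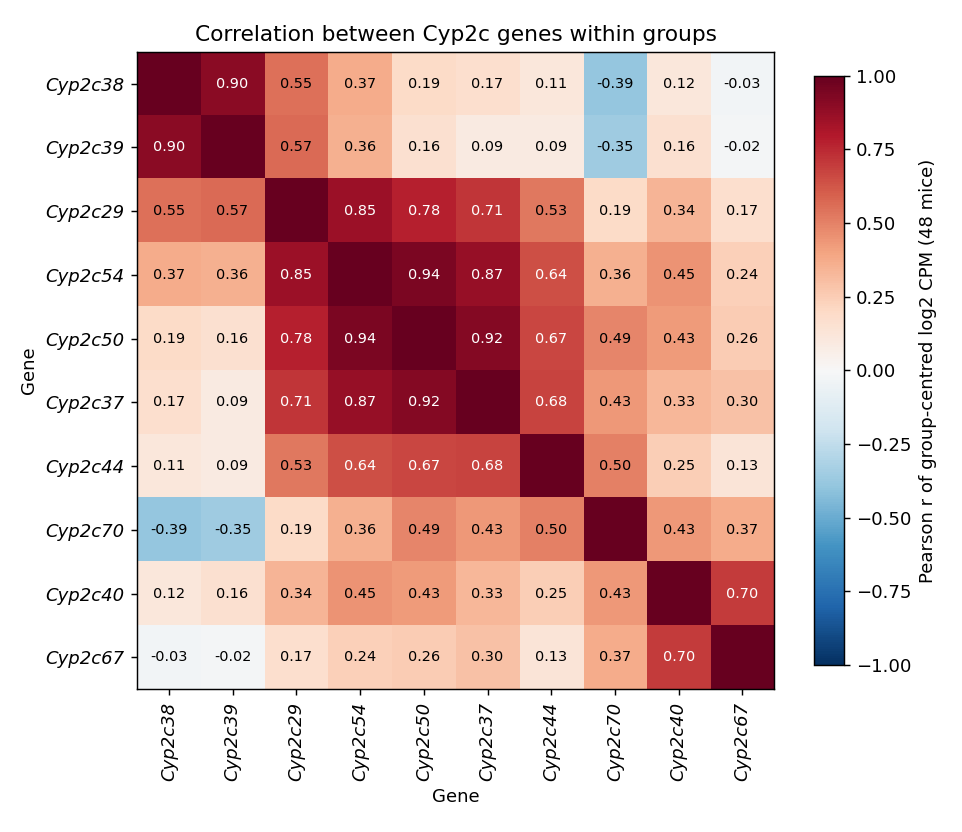
Pearson's r between the members' log2 CPM after centring on the group means, over 48 mice, with colour and printed value per pair. Cyp2c37, Cyp2c50, Cyp2c54 and Cyp2c29 form a block of high values up to 0.94, Cyp2c38 and Cyp2c39 a pair at 0.90, and Cyp2c70 has the lowest values, down to -0.39 with Cyp2c38, beside 0.50 with Cyp2c44.

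Outside the subfamily, the gene with the highest such r was Ugt1a1, the bilirubin glucuronosyltransferase and a CAR target, for Cyp2c37 (0.86), Cyp2c54 (0.84) and Cyp2c50 (0.82). Papss2, which makes the sulfate donor for sulfotransferases, was highest for Cyp2c29 (0.83), and Mat1a, the liver methionine adenosyltransferase, for Cyp2c39 (0.85). Cyp2c38 was nearest to Rdh16f2 (0.75), Cyp2c44 to Afm (0.78), Cyp2c67 to Cald1 (0.72), Cyp2c70 to Ugt2b1 (0.73) and Cyp2c40 to the prolactin receptor gene Prlr (0.66). For the mean of the 10 genes the nearest were Fmo1 (0.86), Maob (0.86), Prlr (0.81), Pon1 (0.81) and Gsta3 (0.81).

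Promoter sequence was available in the RefSeq table (GRCm38.p6) for 8 members, with no entry for Cyp2c54 or Cyp2c44. The letters of 5 motifs were searched on both strands from 250 bases before to 30 after each start: TATAAA (the TATA box, in 13.1% of all 32851 promoters), AGGTCA (a nuclear receptor core motif, 15.3%), CAAAGTCCA (the HNF4A type, 0.457%), GTTAAT (part of the HNF1 motif, 6.85%) and TTCNNNGAA (the STAT5 type, 7.83%). CAAAGTCCA was found in Cyp2c40, Cyp2c67 and Cyp2c70, as well as in the copies Cyp2c68 and Cyp2c69 and in Cyp2c65. TTCNNNGAA was in none of the windows, and Cyp2c37 and Cyp2c50, which were 86.0% identical over the 250 bases, held none of the letters searched. No matches overlapped one another, and a match here describes letters only. The promoters of Cyp2c40 (chr19:39812785-39813064, minus strand) and Cyp2c67 (chr19:39649013-39649292, minus strand) are shown because both genes fell with age and hold CAAAGTCCA, at -45 and -125 from the start. Capitals mark motifs, which are also ATTAAC, the reverse complement of GTTAAT (the same motif on the opposite strand), in Cyp2c40 and TATAAA in Cyp2c67.
Cyp2c40, promoter: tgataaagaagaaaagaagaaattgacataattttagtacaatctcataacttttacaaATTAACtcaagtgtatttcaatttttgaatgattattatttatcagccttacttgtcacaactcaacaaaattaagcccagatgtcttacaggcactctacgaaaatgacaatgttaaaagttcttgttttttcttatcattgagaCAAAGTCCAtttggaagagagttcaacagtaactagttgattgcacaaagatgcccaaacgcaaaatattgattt
Cyp2c67, promoter: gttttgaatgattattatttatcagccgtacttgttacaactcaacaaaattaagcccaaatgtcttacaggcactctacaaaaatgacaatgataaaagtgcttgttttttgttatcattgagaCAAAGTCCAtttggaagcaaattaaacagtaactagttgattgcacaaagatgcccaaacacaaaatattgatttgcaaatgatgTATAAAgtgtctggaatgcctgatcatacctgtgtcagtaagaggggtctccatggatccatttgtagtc
The promoters of Cyp2c38 (chr19:39463046-39463325, minus strand) and Cyp2c39 (chr19:39510572-39510851, plus strand), 79.2% identical over the 250 bases, are shown as the pair with the largest age differences. Each holds TATAAA in capitals, at -31 and -3 from the annotated start, and RefSeq lists another start for Cyp2c39 further upstream.
Cyp2c38, promoter: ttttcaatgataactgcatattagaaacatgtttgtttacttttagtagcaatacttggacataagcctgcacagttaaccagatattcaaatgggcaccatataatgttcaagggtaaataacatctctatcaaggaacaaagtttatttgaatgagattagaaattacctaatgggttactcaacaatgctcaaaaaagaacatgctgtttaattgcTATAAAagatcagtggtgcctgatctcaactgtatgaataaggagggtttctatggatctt
Cyp2c39, promoter: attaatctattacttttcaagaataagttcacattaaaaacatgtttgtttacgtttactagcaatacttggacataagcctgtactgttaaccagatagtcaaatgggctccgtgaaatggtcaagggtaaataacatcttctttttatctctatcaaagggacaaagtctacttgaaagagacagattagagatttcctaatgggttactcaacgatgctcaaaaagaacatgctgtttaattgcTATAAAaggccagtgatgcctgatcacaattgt

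Genes that work with the subfamily were taken from lists by role. Beside the counts of these and the following lists, 6.42% of all genes tested were higher and 5.58% lower in older mice. Age was called for 6.28% of all genes on the normal and 6.96% on the high diet, and diet among older mice for 3.71%. Of 8 genes for electron transfer and haem, 3 rose and 1 fell with age (median log2 difference 0.07), among them the P450-binding protein Pgrmc1 (0.30, adjusted p = 1.39e-08), cytochrome b5 Cyb5a (0.29) and its reductase Cyb5r3 (-0.25). Of 12 genes for epoxides and eicosanoids, 6 rose and none fell (median 0.20), among them Ephx1 (0.51, adjusted p = 6.65e-08), Ephx2 (0.30) and Cyp4f13 (0.16). Of 17 regulators, 1 rose and 1 fell (median -0.09), the aryl hydrocarbon receptor Ahr (0.35) and the clock repressor Nr1d1 (-0.59). Of 20 targets of CAR and PXR outside the subfamily, 9 rose and none fell (median 0.37), among them Aldh1a1 (0.69), Cyp3a11 (0.60) and Ugt1a1 (0.52). On the normal diet 11 of the 20 rose and on the high diet 4 rose and 2 fell.

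In the comparison of diets among older mice, 7 of those 20 targets were lower and 1 higher on the high diet (median -0.29), among them Abcc3 (-0.47) and Ugt1a9 (-0.31) lower and Ces2c (0.69) higher. PXR itself, Nr1i2, was lower (-0.42, adjusted p = 0.0477), as were Ephx1 (-0.57, adjusted p = 0.000248), Cyp4a10 (-2.40) and Cyp4a14 (-2.35). The age by diet interaction was called for Cyp2b10, a CAR target (-1.86, adjusted p = 0.00922), Abcc3 (-0.58), Gstt1 (-0.48), Cyp4a10 (-3.08), Cyp4a14 (-3.53) and Ephx1 (-0.52). None of these age by diet calls passed without the 7 mice labelled 25, when edgeR called 0 of 13053 genes for age by diet (1086 at an unadjusted p under 0.05) and 5 for diet among older mice.

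Of 9 female-biased liver genes, 6 fell with age and none rose (median -1.26), among them Nt5e (-1.57), Cyp17a1 (-1.53) and Cyp2a4 (-1.26). Of 18 male-biased genes, 5 rose and 1 fell (median 0.06), among them Susd4 (1.18), Cspg5 (0.83) and Gstp1 (0.33). Of 9 genes of growth hormone signalling, 1 rose and 2 fell (median -0.03), with Socs2 at -1.10, Igf1 at -0.27 and the receptor Ghr at 0.16. In bile acid metabolism, where Cyp2c70 acts, 2 of 10 genes rose with age and none fell (median 0.06), namely Amacr (0.33) and Hsd3b7 (0.26). Among the remaining subfamily genes tested, Cyp2c55 rose (1.08 ± 0.20, adjusted p = 0.000144), Cyp2c68 and Cyp2c69 fell, as given above, and the pseudogene Cyp2c53-ps differed by 0.01 ± 0.15 (adjusted p = 0.991).

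Markers of where and in which cells these genes are expressed moved with age as well. Of 11 pericentral genes 5 rose and none fell (median 0.22), among them Lgr5 (0.73), Lect2 (0.45) and Cyp1a2 (0.27), and of 12 periportal genes 7 fell and none rose (median -0.30), among them Cps1, Ass1 (both -0.42) and Arg1 (-0.41). Among markers of single cell types, hepatocytes had 1 of 8 called (Alb, 0.18), and both bile duct markers tested rose, Spp1 by 0.72 (adjusted p = 6.58e-10) and Sox9 by 0.83. Bile duct markers summed to 28.2 to 122 CPM in older and 23.8 to 40.04 CPM in younger mice. None of 16 exocrine pancreas markers was called by edgeR (0 at an unadjusted p under 0.05), while DESeq2 called 9, and their sum ranged from 26.3 to 347 CPM in older and from 16.5 to 2310 CPM in younger mice. Of 8 Kupffer cell and 7 stellate cell markers none was called by edgeR (2 and 0 at an unadjusted p under 0.05) or DESeq2. Endothelial markers had 1 higher and 2 lower of 6, lymphocyte markers 1 higher of 2 and erythroid markers 1 higher of 5. No marker was at 0 in every mouse. With a score of clock genes as a covariate, 8 of the 10 genes were called for age, all but Cyp2c29 and Cyp2c70, beside 739 of 11979 genes tested. Without the 10 mice with pancreas transcripts 8 of the 10 were called, beside 893 of 12207 genes tested. The part of zonation or of bile duct cells in the age differences of the 10 genes was not tested.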

How the data were processed

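The authors deposited EMASE expected counts per gene for the NOD and the PWK allele of each mouse, 1 table per strain with 1 column per mouse over 2 flowcells. Per the submitters' processing notes CASAVA 1.7.0, Bowtie 1.1.2 and GRCm38 were used, and per the labels' protocols libraries were unstranded, poly-A selected and read at 68 bases. The version of EMASE and its annotation were not given in the sources used here. EMASE divides a read that matches several genes or both alleles in proportion to an estimate, and 70.8% of values were whole numbers (genes with a mean above 20, tolerance 0.001).

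Both tables were added and rounded, and IDs were named from GENCODE M21 (37607 of 38924 matched, with 0.159% of counts in the rest). Totals were fitted over all 48 mice with edgeR 4.0.16 (R 4.3.3, limma 3.58.1, filterByExpr, TMM, quasi-likelihood), with 1 mean per group. Allele ratios were fitted with edgeR on both alleles' counts with a term per mouse, for genes averaging 20 counts or more, and both columns of a mouse shared its library size. A pseudocount of 0.5 CPM was added for correlations. On simulated counts for the age comparison of totals (11776 genes), changes of 1.25, 1.5, 2 and 4 times were recovered at 60%, 96%, 100% and 100%, with 7 false calls. For the age comparison of allele ratios (2000 genes) 100% were recovered at every size, with 4 false calls. In the mice, the SE of this difference ranged from 0.04 for Cyp2c29 to 0.91 for Cyp2c38 among the members. Cyp2c39, at 0.71 ± 0.29, was not called (adjusted p = 0.628, edgeR). Recovery of allele ratio changes at the spread of each member was not tested.

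Mice of the same number share a set of lanes. Deviations from group means correlated at -0.00536 on average within lane sets (168 pairs, 39 above 0.1) and 0.00131 between them, so the numbers were not taken as pairs and the block was an alternative. No 2 libraries of a group agreed within sampling noise. Alternatives were DESeq2 1.42.0, other scaling, filters, unrounded counts, the replicate block, leaving out a lane set, the shallowest barcode or the mice labelled 25, and, chosen after seeing the data, leaving out mice with pancreas transcripts, a clock score, summed paralogs and single alleles.

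The 10 members and the lists (the remaining Cyp2c genes, electron transfer and haem, epoxides and eicosanoids, regulators, CAR and PXR targets, growth hormone, sex-biased genes, bile acids, zonation, clock, acute phase and cell type markers) were chosen with earlier results of these data known. All members were described. From each list up to 3 genes with the smallest p for age, and for any contrast with a call, were named, and the gene most alike to each member was named by correlation.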

Additional observations from a re-analysis of the deposited data

Results flagged for a closer look

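In groups of 6 mice, 1 mouse stood far from the other 5 in 18 of 160 series of levels or shares examined. Chance gives about 1 in 20 for values that vary smoothly. That rate does not hold for the shares of Cyp2c40 and Cyp2c38, which made most of the flagged shares. There the other mice were mostly tied at 100% or 0%, and a few counts made a flag. The 18 are therefore not read as an excess. For levels, Cyp2c29 stood at 2767 CPM in 1 younger NODxPWK mouse on the normal diet (replicate 6, the others 2193 to 2366). Cyp2c44 stood at 298 CPM in the same mouse (others 229 to 252) and at 269 CPM in a younger NODxPWK mouse on the high diet (replicate 2, others 203 to 222). Cyp2c39 stood at 22.9 CPM in 1 older NODxPWK mouse on the high diet (replicate 2, others 4.64 to 7.74) and at 23.6 CPM in 1 younger PWKxNOD mouse on the high diet (replicate 3, others 48.5 to 71.8).

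For PWK shares, Cyp2c29 stood at 44.3% (replicate 4, others 45.5% to 46%) and Cyp2c37 at 80.7% (replicate 5, others 76.6% to 77.5%) in older NODxPWK mice on the high diet. Cyp2c44 stood at 91.7% in a younger PWKxNOD mouse on the normal diet (replicate 4, others 94.6% to 96%). Cyp2c38, counted at few reads, stood at 51.9% in an older NODxPWK mouse and 35.3% in an older PWKxNOD mouse on the high diet, where the others were at 0%, and at 16.7% in a younger NODxPWK mouse (others 0% to 3.91%). For Cyp2c40, 1 mouse in 7 of the 8 groups departed from the others, which stood at 99.2% to 100%, with values of 97.6%, 98.3%, 98.4%, 98.5%, 98.7%, 99.0% and 99.2%, a difference of at most a few NOD counts.

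The age difference of Cyp2c39 differed between the diets by -2.31 on the log2 scale (edgeR, adjusted p = 0.0164), with the values by age label given in the report.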

How the results depend on the processing

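No called difference of a member changed direction; among those not called, differences near 0 could, and diet among older mice changed sign for Cyp2c40, Cyp2c50 and Cyp2c67 without the mice labelled 25 (0.01, 0.01 and -0.01). Age called 9 of the 10 genes, and 8 or 9 under every alternative, Cyp2c70 being the call that was lost. The replicate block left the counts for age (9), cross (1), interactions (1), PWK against NOD (10) and age on the share (3) as they were and gave 31 in place of 29 calls among the 80 age, diet and cross differences within single levels. Leaving out the 7 mice labelled 25 moved the most: cross had 0 calls, interactions 0, single levels 18 and age on the share 1, with 15 of 60 results on totals lost. The clock score gave 0 for cross and 0 for interactions, leaving out mice with pancreas transcripts 0 for interactions, and DESeq2 3 interactions (Cyp2c29 and Cyp2c39 for age by diet, Cyp2c67 for diet by cross). Leaving out 1 lane set at a time gave 8 to 9 calls for age, 0 to 1 for cross, 0 to 1 for interactions, 22 to 25 for single levels, 9 to 10 for PWK against NOD and 2 to 3 for age on the share. Without lane set 1 Cyp2c40 was not called for cross (0.22, adjusted p = 0.0764), nor was the interaction of Cyp2c39 without lane set 1 (-1.96, adjusted p = 0.103) or 6 (-2.25, adjusted p = 0.145). Leaving out the mice labelled 25 leaves 1 mouse in the older NODxPWK group on the normal diet. Whether calls lost there go with the label or with the fewer mice was not tested. The other causes were not tested either. Depth limits the shares of Cyp2c38 and the NOD allele of Cyp2c40, which rest on few counts per mouse, and read splitting limits every member of a set of near copies.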

Other observations

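Acute phase and clock genes, which the report does not describe, moved with age in the same livers. Of all genes tested, 6.42% were higher and 5.58% lower in older mice, and 10.7% were called for cross. Of 20 acute phase genes 10 rose and 1 fell (median log2 difference 0.28), among them Orm2 (3.09), Hp (0.81) and Hpx (0.59). Of 18 clock genes 1 rose and 9 fell (median -0.36), among them Dbp (-1.30), Per3 (-0.96) and Cry2 (-0.37). With the direction of the cross, 10 clock genes were higher and 4 lower in PWKxNOD, among them Per3 (1.53) higher and Npas2 (-3.22) and Arntl (-1.94) lower. In that comparison Por (1.248), which passes electrons to P450s of the endoplasmic reticulum, and Alas1 (1.58), of haem supply, were also higher in PWKxNOD. So was Cyp7a1 (1.65), the rate-limiting enzyme of bile acid synthesis, while Cyp2c40 was the only member called.

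Cyp2c66, outside the 10 genes, was listed with the same NOD and PWK value in every mouse.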
